A study of Macaca fascicularis with 22 samples.

Results

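The genes described here are PAS domain containing serine/threonine kinase (PASK), the subunits of AMP kinase, the AMP kinase activator STK11 and the growth kinase MTOR. They were chosen by the human RefSeq identifiers under which the array lists its probes. Of 10 identifiers, 9 were on the array with 1 probe each, printed in 2 spots, out of 20217 probes. PRKAA1 (NM_006251), which encodes a catalytic subunit of AMP kinase, was not among them and was not analysed here. The others were PASK (NM_015148), PRKAA2 (NM_006252), PRKAB1 (NM_006253), PRKAB2 (NM_005399), PRKAG1 (NM_002733), PRKAG2 (NM_016203), PRKAG3 (NM_017431), MTOR (NM_004958) and STK11 (NM_000455). PASK and STK11 were chosen by their difference between the birth weight groups, which was already known, since both stand in the study's own list of genes that differ by birth weight. For these genes the difference between the birth weight groups is therefore given as a description, with no test.

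RNA was measured on 22 single-colour arrays from cynomolgus macaque (Macaca fascicularis) neonates of lower birth weight (LBW, 5th to 25th centile) and average birth weight (ABW, 50th to 75th centile). No treatment separated the groups, and per the study's methods the neonates had 1 sire in common. Skeletal muscle (biceps femoris) and umbilical cord had 4 arrays in each birth weight group, and liver had 3, by the labels. Cords were taken at birth, whereas liver and muscle were taken on postnatal day 5 according to the methods and at birth according to the labels. The labels do not say that the replicates of a group are separate animals, so that p-values measure the spread between these arrays.

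PASK is an evolutionarily conserved kinase with a sensory PAS domain, which responds to nutrient supply and acts on glycogen synthase among other targets. AMP kinase is a complex of a catalytic alpha subunit, a scaffolding beta subunit that binds glycogen and a gamma subunit that binds adenine nucleotides. It is switched on by falling cellular energy through phosphorylation of the alpha subunit by STK11, also called LKB1, and it turns down anabolic processes, including those driven by MTOR. PRKAA2 is known for its abundance in skeletal and cardiac muscle, and PRKAG3 as a gamma subunit of skeletal muscle.

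Values are log2 signals relative to the 75th percentile of their array, so that a value of 0 equals that percentile, and they are compared for the same probe between arrays only. That percentile lay between 315.5 and 2390 signal units and 14594 to 17887 probes per array were well above background, by the flag of the scanner software. The 24 probes of 22 hepatocyte genes were all highest on the arrays labelled umbilical cord, where their mean lay between 5.68 and 6.53. On the arrays labelled liver it lay between -6.40 and -5.51, with 9 of the 24 probes well above background on none of them, albumin (ALB) included. All 14 probes of stromal and matrix genes were highest on the arrays labelled liver and all 16 probes of striated muscle genes on the skeletal muscle arrays. The labels liver and umbilical cord therefore go against these markers, and the arrays are called liver-labelled and cord-labelled throughout. All ABW muscle arrays were on slide 1 and all LBW muscle arrays on slide 2, so that in muscle the birth weight group and the slide cannot be told apart. These slides held no array of another label, so that muscle and slide cannot be told apart in the comparisons between labels either. The cord-labelled LBW arrays filled slide 5, and the cord-labelled ABW arrays were on slides 4 and 6. Slide 4 held 2 cord-labelled ABW arrays and 2 liver-labelled LBW arrays. Wherever labels are compared within slide 4, label and birth weight group therefore cannot be told apart. With slide as a random block, the number of genes called was the same as without it in each comparison that this fit was run for. That fit cannot separate slide from birth weight under the label umbilical cord, where no slide held both groups, or from muscle.

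PASK was the most variable of these genes. On the skeletal muscle arrays its value in ABW replicates 1 to 4 was -8.06, -8.29, -2.66 and -2.69, and in LBW replicates 1 to 4 it was -4.65, -2.67, -2.08 and -2.05. In ABW replicates 1 and 2 the probe was not well above background. The LBW arrays overlapped the ABW arrays, since LBW replicate 1 was lower than ABW replicates 3 and 4.

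The PASK value on the liver-labelled arrays was -8.47, -3.46 and -4.73 in ABW replicates 1 to 3 and -5.17, -3.47 and -3.28 in LBW replicates 1 to 3. ABW replicate 1 was again not well above background, and the other arrays of both groups overlapped. On the cord-labelled arrays it was -8.44, -4.53, -8.96 and 0.62 in ABW replicates 1 to 4 and -0.25, 0.23, -4.63 and 0.35 in LBW replicates 1 to 4. Here ABW replicates 1 and 3 were not well above background, while ABW replicate 4 was the highest of all 22 arrays and LBW replicate 3 was far below the other LBW arrays. The probe was thus well above background on 2 of 4, 2 of 3 and 2 of 4 ABW arrays in muscle, liver and umbilical cord, by their labels, and on all 11 LBW arrays.

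**Figure D1:**
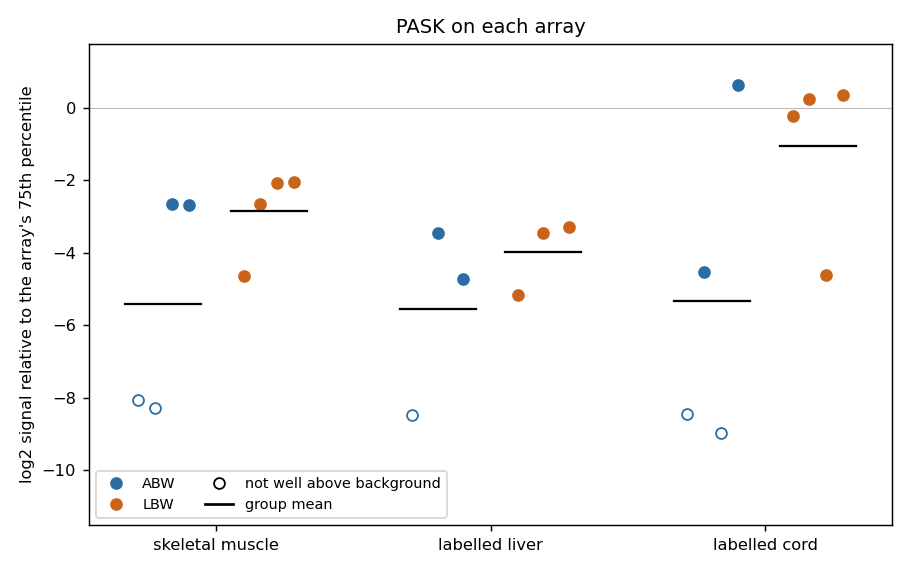
PASK log2 signal relative to the 75th percentile of the array (vertical axis) on each of the 22 arrays, by tissue label and birth weight group (points in replicate order; open points are not well above background; bars are group means). The LBW mean is above the ABW mean in each label, and the points of the groups overlap in each label.

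The group mean of PASK in muscle was -5.42 ± 3.18 for the ABW and -2.86 ± 1.23 for the LBW arrays (SD, n = 4 each), a difference of 2.56 on the log2 scale. It was -5.55 ± 2.60 and -3.97 ± 1.04 (SD, n = 3 each) on the liver-labelled arrays, a difference of 1.58. On the cord-labelled arrays it was -5.33 ± 4.43 and -1.07 ± 2.38 (SD, n = 4 each), a difference of 4.26. These differences are those that chose the gene, and they carry no test.

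The size of the PASK difference changed with single arrays. In muscle it was 1.68 without ABW replicate 1 and 1.61 without ABW replicate 2, both of them dim, and it reached 3.48 without ABW replicate 3. On the liver-labelled arrays it was 0.12 without ABW replicate 1 and 2.62 without ABW replicate 2, and within slide 3, which held all 3 ABW arrays and LBW replicate 1, it was 0.38. On the cord-labelled arrays it ranged from 3.05, without ABW replicate 3, to 6.24, without ABW replicate 4. Against the ABW arrays of slide 4 alone it was 5.41 and against those of slide 6 alone it was 3.10.

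A background correction that keeps dim signals apart from 0 (normexp) lowered the difference to 0.74, 0.36 and 1.79 in muscle, liver and umbilical cord, by their labels. Raising all signals below the dimmest one well above background to that level gave 1.93, 1.13 and 3.62. The direction was the same in each of these.

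**Figure D2:**
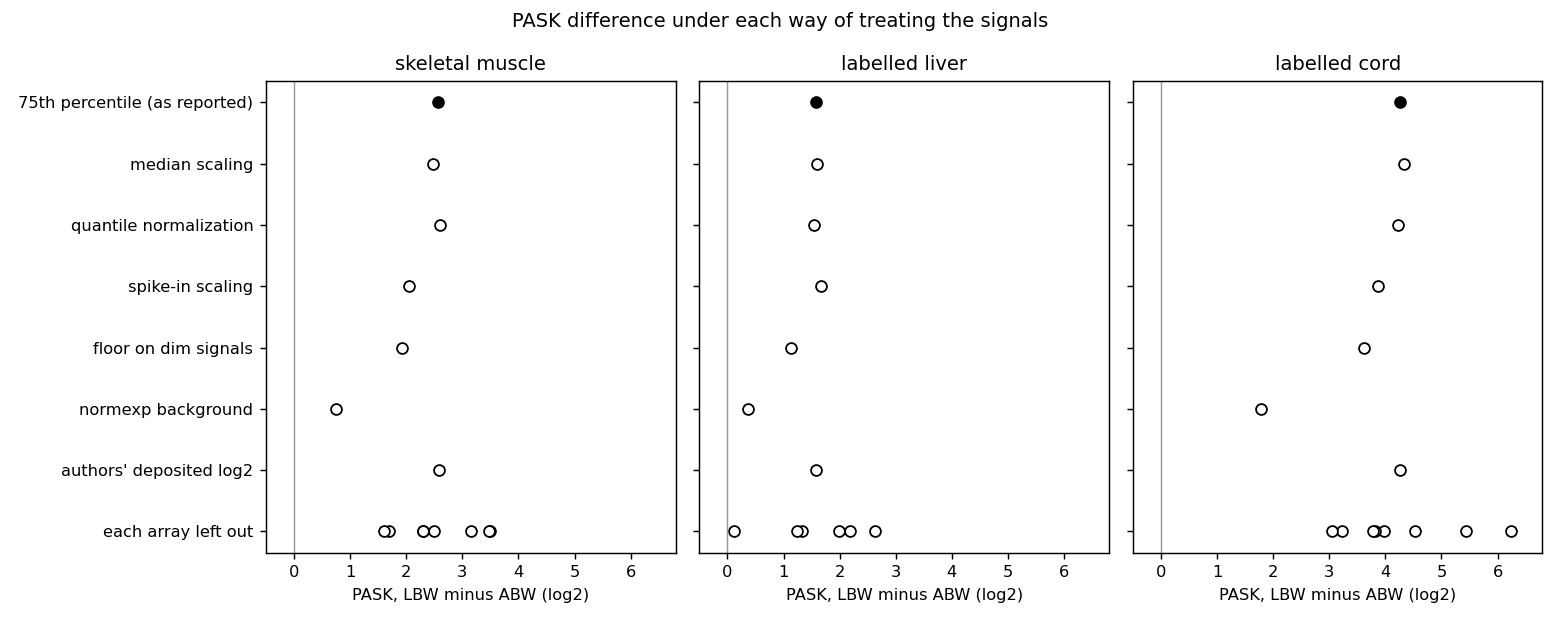
PASK difference, LBW minus ABW, on the log2 scale (horizontal axis) in each tissue label under each way of treating the signals (vertical axis). Each point is 1 fit and the lowest line holds 1 point per array left out. All points are above 0, and normexp and the array left out move them most.

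The spread of PASK within the 6 groups, pooled, was 2.81 log2 units against a median of 0.47 over all probes. It was the 4th widest of the 17117 probes kept after a filter on background. The 2 spots of the probe differed by a median of 0.13 log2 units on the 17 arrays where it was well above background and by at most 0.42. The pooled spread also holds the arrays where the probe was dim, and their spots were not compared. The next widest of these genes was PRKAG3, with 0.80.

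The level of PASK did not pass the test between tissue labels. Its mean over both birth weight groups was -4.14 in muscle, -4.76 on the liver-labelled arrays and -3.20 on the cord-labelled arrays. Muscle minus liver-labelled was 0.62 (95% confidence interval -2.25 to 3.49, limma adjusted p = 0.709), muscle minus cord-labelled was -0.94 (-3.60 to 1.72, adjusted p = 0.534) and cord-labelled minus liver-labelled was 1.56 (-1.31 to 4.43, adjusted p = 0.322). The intervals leave room for large differences in either direction. Scaling to spike-in controls turned the first of these to -0.11, and it took the second to -2.13 (adjusted p = 0.00344) and the third to 2.01 (adjusted p = 0.0135). Under normexp the third was 1.60 (adjusted p = 0.0198). Within slide 4, the one slide that held both of these labels with 2 arrays each, it was -3.11 (adjusted p = 0.0992), the opposite direction. Those were cord-labelled ABW and liver-labelled LBW arrays, so that this value cannot separate label from birth weight group.

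Of all probes that were kept and are not listed above, the one whose values over the 22 arrays were most like those of PASK was that of NM_000977, with a Pearson r of 0.76. It was followed by A_01_P019886 (0.72), C1orf83 (NM_153035, 0.72), TAOK2 (NM_004783, 0.70) and XR_011794 (0.70). These are descriptions over arrays that share tissue labels, slides and birth weight groups. The study gives NM_000977 (ribosomal protein L13) and XR_011794, like PASK, as higher in LBW in each tissue. NM_000977 was also first with each group's mean taken off (r = 0.83). The other genes described here had an r to PASK between -0.21 and 0.19. With each group's mean taken off, so that differences between labels and birth weight groups were removed, r to PASK was -0.60 for PRKAA2 and 0.54 for PRKAG2, and between -0.20 and 0.01 for the other 6 genes, over the same 22 arrays. PRKAA2 was well above background on only 10 of these arrays. Cord-labelled ABW replicate 4 was the highest array of its group for PASK (0.62) and PRKAG2 (-1.12). It was the lowest of its group for PRKAA2 (-10.10, not well above background). The weight of this array in these r values was not tested.

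Between the 3 tissue labels the widest differences were those of the AMP kinase genes PRKAG3 and PRKAA2, both higher in muscle. Of the 9 genes, 7 differed between muscle and the liver-labelled arrays, 5 of them higher and 2 lower in muscle, where 65.3% of all probes passed the same test, 37.1% higher and 28.1% lower (limma, adjusted p under 0.05). Between muscle and the cord-labelled arrays 8 differed, 6 of them higher and 2 lower in muscle, against 64.9% of all probes, 35.8% higher and 29.1% lower. Between the cord-labelled and liver-labelled arrays 4 of the 8 that were measured differed, 1 of them higher and 3 lower on the cord-labelled arrays, against 66.9% of all probes, 35.6% higher and 31.3% lower. The median difference of the genes was 0.74, 0.80 and -0.17 in these comparisons, in this order, and that of all probes 0.21, 0.11 and 0.13. In RNA of whole tissue, fewer cells of a type and less RNA per cell cannot be told apart.

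The catalytic subunit gene PRKAA2 was detected on every muscle array. Its value was -1.18, -1.96, -1.83 and -2.35 in ABW replicates 1 to 4 and -1.67, -1.73, -2.39 and -1.93 in LBW replicates 1 to 4. It was, on the liver-labelled arrays, -6.21, -7.04 and -6.66 in ABW and -7.27, -7.08 and -7.63 in LBW, and it was well above background only in ABW replicates 1 and 3. It was well above background on none of the 8 cord-labelled arrays. Every muscle array lay above every other array.

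Muscle PRKAA2 exceeded the liver-labelled mean by 5.10 log2 units (95% confidence interval 4.54 to 5.66, adjusted p = 1.86e-12), with 2 of 6 liver-labelled arrays measured. It was at least 39.8-fold higher than on the cord-labelled arrays (adjusted p = 3.73e-15). Here and below, a bound sets the mean of the brighter arrays against the dim arrays at their own signal or at the dimmest signal well above background on that array, whichever is higher. For cord-labelled minus liver-labelled arrays the fitted difference was -1.57 (adjusted p = 3.49e-05), with a bound of 1.16-fold. That bound is no firm minimum, since only 2 of 6 liver-labelled arrays were well above background. The call did not hold with dim signals raised to a floor (adjusted p = 0.546) and changed direction under normexp. Within slide 4 the fitted difference was -1.05 (adjusted p = 0.0464). Under normexp, whose offset narrows the differences of dim probes, the muscle excess was 2.17 log2 units over the liver-labelled arrays (adjusted p = 1.64e-07) and 2.02 over the cord-labelled arrays (adjusted p = 1.12e-07).

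The gamma subunit gene PRKAG3 had the widest contrast. Its value in muscle was 0.75, -0.37, 1.41 and 0.05 in ABW replicates 1 to 4 and -1.25, -1.89, 0.15 and 0.78 in LBW replicates 1 to 4. It was well above background on none of the 6 liver-labelled arrays and none of the 8 cord-labelled arrays. Muscle was at least 154-fold higher than the former (adjusted p = 2.12e-13) and at least 139.9-fold higher than the latter (adjusted p = 6.37e-14). These bounds hold without a further background correction. Under normexp the differences were 3.99 (adjusted p = 1.72e-09) and 3.69 log2 units (adjusted p = 1.25e-09), which are smaller than the bounds. All 16 probes of striated muscle genes were highest in muscle too, and the part of muscle fibre content in these differences was not tested.

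PRKAG2, the gene of another gamma subunit, was ordered the other way. Its value lay between -4.47 and -2.58 in muscle, between -2.30 and -1.12 on the cord-labelled arrays and between -1.38 and -0.46 on the liver-labelled arrays. Its mean was -3.13 ± 0.59 (SD, n = 8) in muscle, -1.82 ± 0.40 (SD, n = 8) on the cord-labelled arrays and -0.90 ± 0.32 (SD, n = 6) on the liver-labelled arrays. Every muscle array lay below every array of the other labels, which overlapped each other. Muscle was lower than the liver-labelled arrays by 2.23 log2 units (adjusted p = 6.07e-08) and lower than the cord-labelled arrays by 1.31 (adjusted p = 2.08e-05), and the cord-labelled arrays were lower than the liver-labelled ones by 0.92 (adjusted p = 0.00179). Under normexp the differences were -1.45, -0.83 and -0.63, and all 3 passed. These directions held under each scaling, although the last difference did not pass under spike-in scaling (adjusted p = 0.538). Within slide 4 it was -1.19 (adjusted p = 0.0205).

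**Figure D3:**
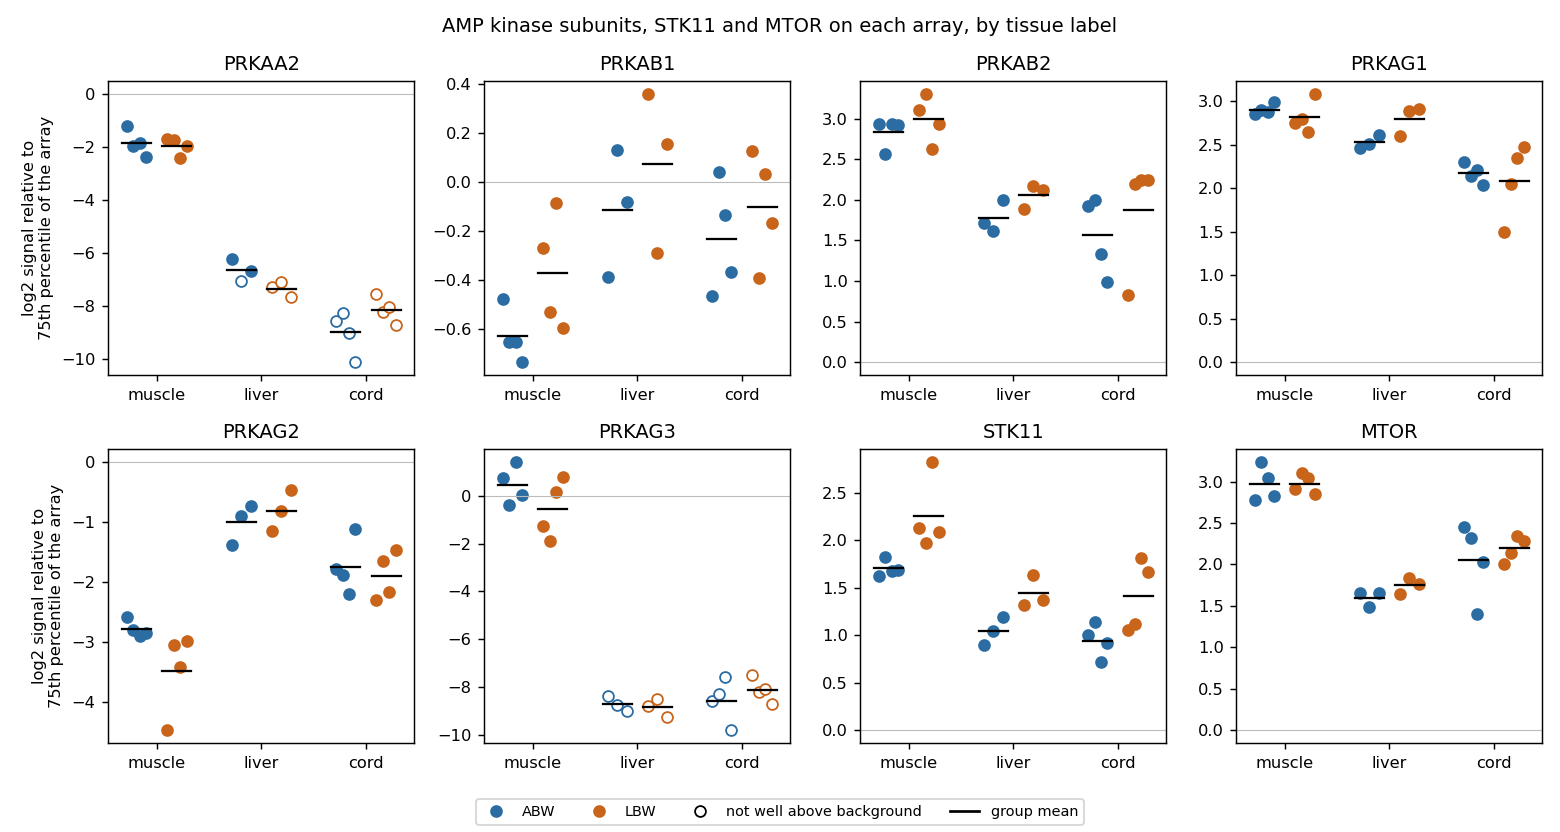
Log2 signal relative to the 75th percentile of the array (vertical axes, each with its own range) of 8 genes on each array, by tissue label (muscle, and the labels liver and cord) and birth weight group. Open points are not well above background and bars are group means. PRKAA2 and PRKAG3 are open on the cord-labelled arrays, and PRKAG2 is lowest in muscle.

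The third gamma subunit gene, PRKAG1, varied least between arrays of a group, with a pooled spread of 0.22. Its value lay between 2.64 and 3.08 in muscle, between 2.46 and 2.91 on the liver-labelled arrays and between 1.49 and 2.47 on the cord-labelled arrays, so that the cord-labelled arrays lay below all muscle arrays and overlapped the liver-labelled ones. Its mean was 2.86 ± 0.14 (SD, n = 8) in muscle, 2.66 ± 0.19 (SD, n = 6) on the liver-labelled arrays and 2.13 ± 0.30 (SD, n = 8) on the cord-labelled arrays. Muscle and liver-labelled arrays differed by 0.20 (95% confidence interval -0.11 to 0.50, adjusted p = 0.247), the cord-labelled arrays were 0.73 below muscle (adjusted p = 8.08e-05) and cord-labelled minus liver-labelled was -0.53 (adjusted p = 0.00318). Under spike-in scaling the muscle minus cord-labelled difference turned to -0.45, and muscle minus liver-labelled to -0.54. Within slide 4 cord-labelled minus liver-labelled was -0.68 (adjusted p = 0.0839).

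Among the beta subunit genes, PRKAB2 was higher in muscle, with a mean of 2.92 ± 0.24 (SD, n = 8) against 1.92 ± 0.22 (SD, n = 6) on the liver-labelled arrays and 1.72 ± 0.58 (SD, n = 8) on the cord-labelled arrays. It lay between 2.56 and 3.30 in muscle, between 1.61 and 2.17 on the liver-labelled arrays and between 0.83 and 2.25 on the cord-labelled arrays, and no array of the other labels reached the muscle arrays. The difference was 1.0 (adjusted p = 0.000552) and 1.20 (adjusted p = 3.36e-05), and it fell to 0.27 and 0.01 under spike-in scaling, where neither passed. Cord-labelled minus liver-labelled was -0.20 (95% confidence interval -0.66 to 0.27, adjusted p = 0.445).

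PRKAB1 was lower in muscle, at -0.50 ± 0.22 (SD, n = 8) against -0.02 ± 0.29 (SD, n = 6) on the liver-labelled arrays and -0.17 ± 0.22 (SD, n = 8) on the cord-labelled arrays, and the arrays of all labels overlapped. The difference was -0.48 (adjusted p = 0.00846) and -0.34 (adjusted p = 0.0409). The second did not pass with normexp (adjusted p = 0.0685), with no filter on background (adjusted p = 0.0539) or without the arrays of slide 6 (adjusted p = 0.0634). It was also lost in each of 9 fits that left out 1 array, with adjusted p between 0.0601 and 0.0859. In muscle the array left out was ABW replicate 2, 3 or 4 or LBW replicate 2 or 4. Among the cord-labelled arrays it was ABW replicate 2 or 3 or LBW replicate 1 or 3. Cord-labelled minus liver-labelled was -0.15 (95% confidence interval -0.46 to 0.17, adjusted p = 0.399).

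The upstream kinase STK11 was higher in muscle, with a mean of 1.98 ± 0.39 (SD, n = 8) against 1.24 ± 0.26 (SD, n = 6) on the liver-labelled arrays and 1.18 ± 0.37 (SD, n = 8) on the cord-labelled arrays. The difference was 0.74 (adjusted p = 0.000477) and 0.80 (adjusted p = 8.52e-05), with 0.00 and -0.38 under spike-in scaling, where neither passed. The arrays of the 3 labels overlapped. Cord-labelled minus liver-labelled was -0.06 (95% confidence interval -0.40 to 0.27, adjusted p = 0.741).

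MTOR was ordered from muscle, at 2.98 ± 0.16 (SD, n = 8), over the cord-labelled arrays, at 2.12 ± 0.33 (SD, n = 8), to the liver-labelled arrays, at 1.67 ± 0.12 (SD, n = 6). Every muscle array lay above every other array, and the cord-labelled and liver-labelled arrays overlapped. Muscle was higher by 1.30 against the liver-labelled arrays (adjusted p = 3.02e-07) and by 0.85 against the cord-labelled ones (adjusted p = 2.27e-05), the latter turning to -0.33 under spike-in scaling. Cord-labelled minus liver-labelled was 0.45 (adjusted p = 0.0139), and 0.24 with quantile normalization (adjusted p = 0.151) and 0.58 within slide 4 (adjusted p = 0.120).

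Spike-in scaling moved the whole array and not these genes alone. The median difference of all probes went from 0.21 to -0.53 between muscle and liver-labelled arrays, from 0.11 to -1.07 between muscle and cord-labelled arrays and from 0.13 to 0.58 between cord-labelled and liver-labelled arrays. The calls over all probes went from 6357 higher and 4817 lower to 1597 and 4649 in the first, from 6128 and 4982 to 1472 and 7953 in the second, and from 6094 and 5363 to 4829 and 2438 in the third. Of the 9 genes, those that passed under spike-in scaling were PRKAA2, PRKAG2 and PRKAG3 between muscle and liver-labelled arrays, these and PASK and PRKAB1 between muscle and cord-labelled arrays, and PASK alone between cord-labelled and liver-labelled arrays. Relative to the median of all probes, MTOR in muscle was 1.09 above the liver-labelled and 0.74 above the cord-labelled arrays. STK11 was at 0.53 and 0.69, PRKAB2 at 0.79 and 1.08, and PRKAG1 at -0.01 and 0.62. These values are the same under both scalings, which was fixed in advance, since the scalings differ by a constant per array. They do not show that a difference holds under spike-in scaling.

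**Figure D4:**
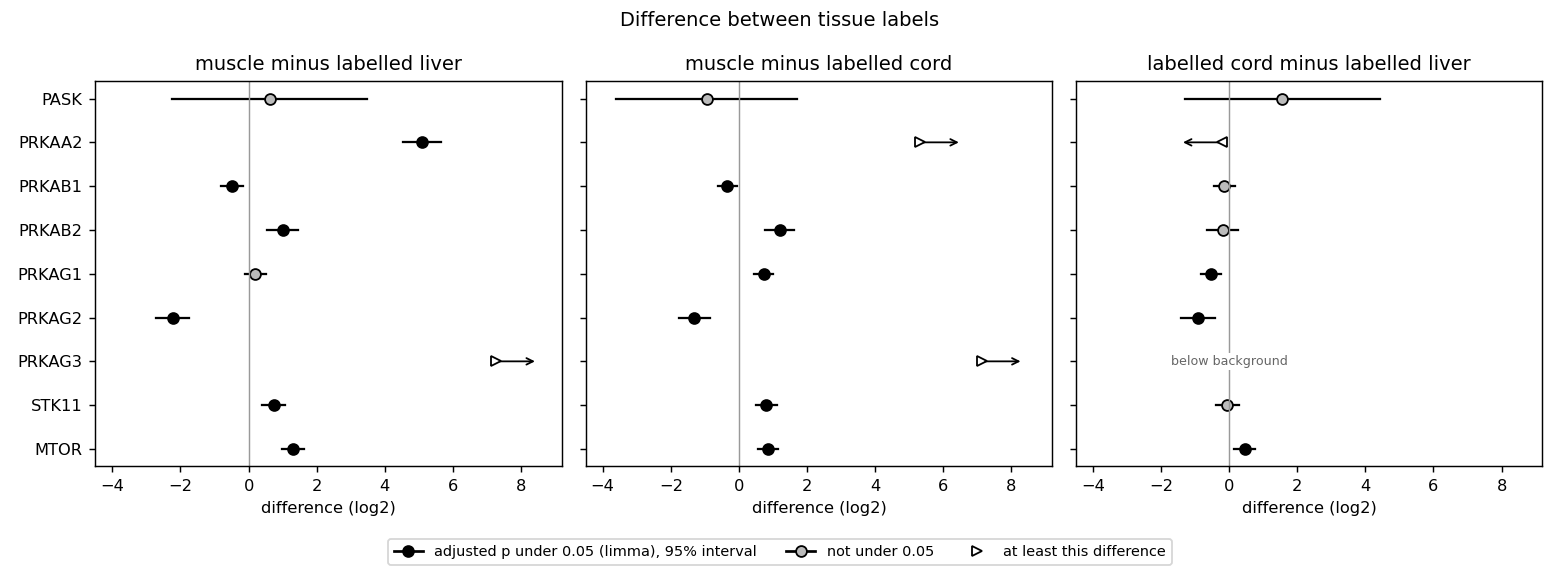
Difference between tissue labels in log2 units (horizontal axes) for the 9 genes. Points are limma estimates with 95% confidence intervals, grey where the adjusted p was not under 0.05, and open triangles with an arrow of fixed length mark bounds where one side was below background on every array. PRKAG3 and PRKAA2 have the widest differences and PRKAG2 is farthest to the left in both comparisons with muscle.

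None of the 7 genes tested for a difference between LBW and ABW passed in any label. In muscle 0 of 7 passed, where 0% of all probes did (limma, adjusted p under 0.05), and 0 of 7 had an unadjusted p under 0.05 by limma or by the methods' t-test, a mark that 14.7% of all probes passed by limma. On the liver-labelled arrays 0 of 6 passed, where 0% of all probes did, with 1 of 6 at an unadjusted p under 0.05 by limma, against 5.99% of all probes, and 0 by the methods' t-test. On the cord-labelled arrays 0 of 5 passed, where 0.625% of all probes did, and 0 of 5 had an unadjusted p under 0.05 by either, against 8.94% of all probes by limma. PRKAG3 on the liver-labelled arrays and PRKAG3 and PRKAA2 on the cord-labelled arrays could not be compared because they were below background on every array. Within slide 3 the differences of the 6 genes tested on the liver-labelled arrays lay between -0.63 and 0.47. That slide held only 1 LBW array, so that these are given as sizes alone.

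MTOR had the smallest difference in muscle. Its value there was 2.78, 3.24, 3.05 and 2.83 in ABW and 2.91, 3.10, 3.05 and 2.85 in LBW replicates 1 to 4. The difference was 0.00 (95% confidence interval -0.39 to 0.40, adjusted p = 0.993), the LBW arrays lying within the range of the ABW arrays. It was 0.15 (-0.25 to 0.55, adjusted p = 0.939) on the liver-labelled arrays and 0.14 (-0.52 to 0.81, adjusted p = 0.912) on the cord-labelled arrays.

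PRKAG2 had the smallest p of these genes in muscle. Its value was -2.58, -2.80, -2.89 and -2.84 in ABW and -4.47, -3.05, -3.42 and -2.99 in LBW replicates 1 to 4, so that every LBW array lay below every ABW array. Such a separation was found for 1.92% of all probes. A two-sided exact permutation test of this difference gave an unadjusted p of 0.0286. That is the smallest p possible with 70 arrangements, and 18 such tests were computed over genes and labels. LBW minus ABW was -0.70 (95% confidence interval -1.42 to 0.01, adjusted p = 0.349), -0.37 without LBW replicate 1 and -0.18 under normexp.

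The mean of 14 probes of stromal and matrix genes, which were highest on the same label as PRKAG2, lay between 1.46 and 2.40 in ABW and between 1.07 and 1.69 in LBW muscle. Its part in the PRKAG2 difference was not tested. PRKAG2 differed by 0.19 on the liver-labelled arrays (-0.45 to 0.83, adjusted p = 0.955) and by -0.15 on the cord-labelled arrays (-0.88 to 0.58, adjusted p = 0.914). A test of whether its difference varied between the labels gave an adjusted p of 0.739 (limma, interaction).

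PRKAG3 in muscle had a lower mean in LBW by 1.01 log2 units, with a wide interval (-2.38 to 0.36, adjusted p = 0.485). LBW replicates 1 and 2 were below all ABW arrays, whereas LBW replicates 3 and 4 lay among them. PRKAA2 in muscle differed by -0.10 (-0.72 to 0.53, adjusted p = 0.909), and the groups overlapped.

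On the liver-labelled arrays, where PRKAA2 was near background, all 3 LBW arrays lay below all 3 ABW arrays, as they did for 3.21% of all probes. The fitted LBW minus ABW difference was -0.69 (adjusted p = 0.822), with 0 of 3 LBW and 2 of 3 ABW arrays well above background. The interaction of birth weight and label gave an adjusted p of 0.389 for PRKAA2, and none of the 7 genes passed this test, against 1.01% of all probes.

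The beta subunit genes and PRKAG1 had small differences in every label. PRKAB1 differed by 0.26, 0.19 and 0.13 in muscle, liver and umbilical cord, by their labels, and PRKAB2 by 0.15, 0.28 and 0.32. PRKAG1 differed by -0.08, 0.27 and -0.08. All of their 95% confidence intervals held 0, the widest being that of PRKAB2 on the cord-labelled arrays, from -0.58 to 1.21.

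**Figure D5:**
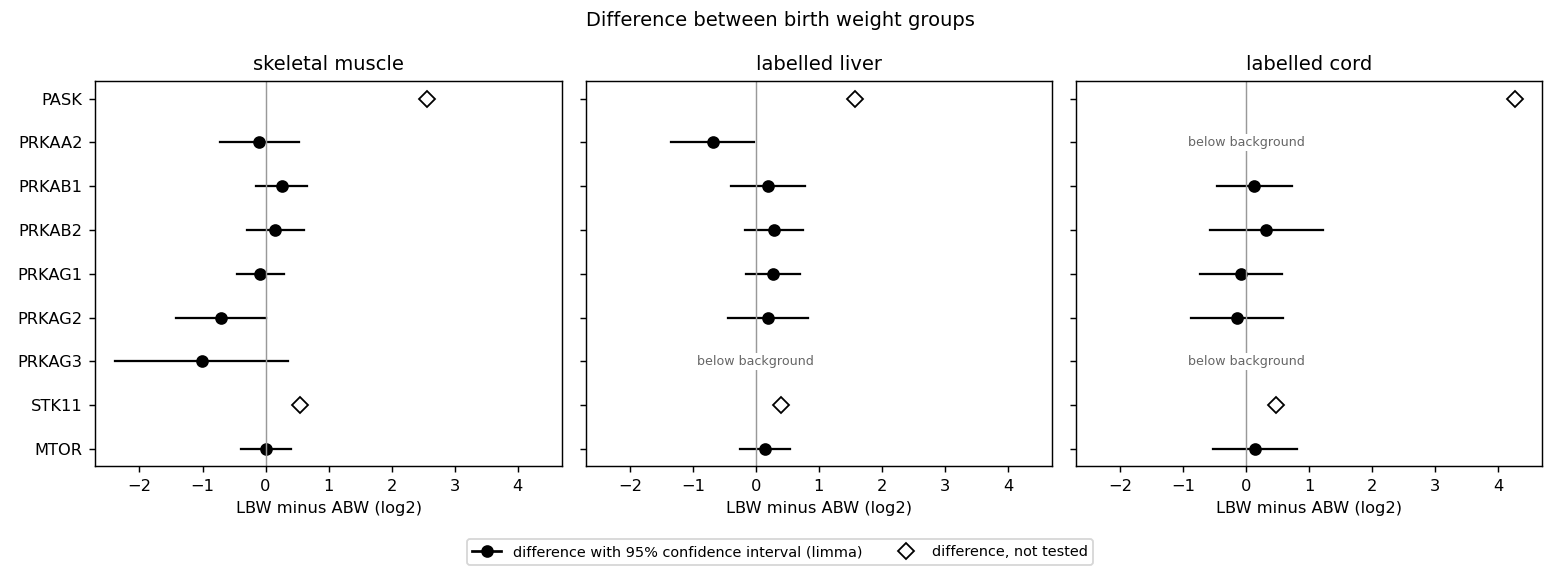
Difference between LBW and ABW in log2 units (horizontal axes) for the 9 genes in each tissue label. Filled points are limma estimates with 95% confidence intervals and open diamonds are the differences of PASK and STK11, given with no test. No filled point had an adjusted p under 0.05, and PASK is farthest to the right in each label.

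STK11 had a higher mean in LBW in each label, by a small amount. In muscle its value was 1.62, 1.83, 1.68 and 1.69 in ABW and 2.13, 1.98, 2.82 and 2.09 in LBW replicates 1 to 4. On the liver-labelled arrays it was 0.90, 1.04 and 1.19 in ABW and 1.32, 1.63 and 1.37 in LBW. On the cord-labelled arrays it was 1.0, 1.14, 0.72 and 0.91 in ABW and 1.06, 1.12, 1.82 and 1.67 in LBW. The groups did not overlap in muscle or under the label liver, a separation in this direction that 8.61% and 8.82% of all probes had, and they overlapped on the cord-labelled arrays, where 2.65% of all probes were separated in this direction.

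The STK11 difference was 0.55, 0.40 and 0.47 log2 units in muscle, liver and umbilical cord, by their labels, and none of these carries a test. Without LBW replicate 3 it was 0.36 in muscle, and within slide 3 it was 0.28 on the liver-labelled arrays. With spike-in scaling, which took the median difference of all probes from 0.07, 0.06 and -0.01 to -0.45, 0.15 and -0.40, it was 0.03, 0.49 and 0.09. Over all probes the LBW mean was the higher one for 57.3%, 58.5% and 49.1% in these labels.

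The genes around these kinases were read from 8 lists of AMP kinase activators and targets, related kinases, MTOR complex members, regulators and outputs, PASK partners and other nutrient sensors, in all 79 genes, of which 68 were on the array and 74 probes were kept. In muscle 0 of 74 probes differed between LBW and ABW and on the liver-labelled arrays 0 of 74 (limma, adjusted p under 0.05), with 8 (10.8%) and 2 (2.7%) at an unadjusted p under 0.05, beside 14.7% and 5.99% of all probes. Their median difference was 0.05 and 0.02, beside 0.07 and 0.06 over all probes. On the cord-labelled arrays 1 of 74 differed, 1.35% against 0.625% of all probes, and 5 (6.76%) had an unadjusted p under 0.05 beside 8.94% of all probes. The median difference was 0.06 beside -0.01 over all probes.

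That probe was RHEB (NM_005614), the small GTPase that activates the MTOR complex at the lysosome. Its value on the cord-labelled arrays was -1.99, -1.97, -0.45 and -0.80 in ABW and -3.65, -4.28, -3.97 and -4.14 in LBW replicates 1 to 4, every LBW array lying below every ABW array. LBW minus ABW was -2.71 log2 units (SE 0.40, adjusted p = 0.0153), with -2.03 against the ABW arrays of slide 4 alone (adjusted p = 0.0979) and -3.39 against the ABW arrays of slide 6 alone (adjusted p = 0.00542). All LBW arrays of this label were on slide 5 and no ABW array was, so that birth weight and slide cannot be told apart here. With slide as a random block the adjusted p was 0.00524, and the calls over all probes rose from 107 to 182. No slide held both birth weight groups of this label, so that this fit cannot separate them from slide either. A separation in this direction was found for 3.21% of all probes. In muscle its LBW minus ABW difference was -0.84 with no overlap of the groups, a separation in this direction that 1.92% of all probes had. On the liver-labelled arrays the RHEB difference was 0.07. The limma interaction of birth weight and label had an adjusted p of 0.0127 for RHEB. RHEB was named for its cord-labelled difference, which the interaction also uses, so that this is no separate support. Birth weight and slide cannot be told apart in muscle or on the cord-labelled arrays, and the interaction cannot separate them either. Over all probes the interaction passed for 173, and for 2 under spike-in scaling. The RHEB call on the cord-labelled arrays was lost with normexp (adjusted p = 0.290), with spike-in scaling (0.696) and with the methods' t-test (0.482). It was also lost without ABW replicate 4 or LBW replicate 2, 3 or 4 (between 0.0532 and 0.0653).

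The listed probes with the smallest p in muscle were FLCN (NM_144606), the folliculin gene, with 1.07 (adjusted p = 0.0823), DDIT4 (NM_019058), an inhibitor of MTOR signalling induced by stress, with 1.47 (adjusted p = 0.135) and the AMP kinase related kinase BRSK2 (NM_003957) with 0.82 (adjusted p = 0.192). FLCN had a further probe (NM_144997), whose difference was 0.49 (adjusted p = 0.346). For the named probe of FLCN and for DDIT4 every LBW muscle array lay above every ABW muscle array, as for 8.61% of all probes. On the liver-labelled arrays they were PPARGC1A (NM_013261), a coactivator of mitochondrial genes, which was at least 2.26-fold higher in LBW and not well above background in any ABW array (adjusted p = 0.783), DDIT4 with -1.05 (adjusted p = 0.813) and MELK (NM_014791) with -0.74 (adjusted p = 0.831). None of these passed.

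Between tissue labels the listed probes changed about as often as all probes. In muscle against the liver-labelled arrays 48 of 74 differed, 34 of them higher in muscle, which is 64.9% beside the 65.3% of all probes. In muscle against the cord-labelled arrays 51 differed, 41 of them higher in muscle (68.9% beside 64.9%), and between the cord-labelled and liver-labelled arrays 47 differed, 21 of them higher on the cord-labelled ones (63.5% beside 66.9%). With spike-in scaling these counts were 24, 29 and 23, or 32.4%, 39.2% and 31.1%, beside 36.5%, 55.1% and 42.5% of all probes. Within slide 4 the last was 23, or 31.1% beside 44.4%. By list, the largest share of called probes was 6 of 6 for the PASK partners between muscle and the liver-labelled arrays and 8 of 8 for the MTOR complexes between muscle and the cord-labelled arrays. The smallest share of called probes was 2 of 8 for the MTOR complexes, between muscle and the liver-labelled arrays and again between the cord-labelled and liver-labelled arrays, and for the AMP kinase related kinases between muscle and the cord-labelled arrays.

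The glycogen synthase genes, whose products are targets of PASK, separated the labels. GYS1 (NM_002103), the muscle form, was higher in muscle than on the cord-labelled arrays by 4.98 log2 units (adjusted p = 8.80e-14). GYS2 (NM_021957), the liver form, differed by -9.14 log2 units between muscle and the cord-labelled arrays (adjusted p = 1.36e-16), with 1 of 8 muscle arrays well above background, and by -5.04 under normexp. It was at least 491-fold higher on the cord-labelled arrays than on the liver-labelled arrays (adjusted p = 1.52e-16), where it was well above background on none of 6.

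Against the liver-labelled arrays the listed genes with the largest excess in muscle were PDK4 (NM_002612), a kinase that holds back pyruvate oxidation, with 9.56, PPARGC1A with 9.29 and RRAGD (NM_021244), a Rag GTPase of the amino acid pathway to MTOR, with 7.41 (adjusted p = 8.47e-10, 9.65e-14 and 8.22e-14). PDK4 and PPARGC1A were each well above background on 3 of 6 liver-labelled arrays, and under normexp their excess was 6.39 and 5.91. Among those lower in muscle were CAMKK1 (NM_032294), an upstream kinase, with -2.58 and MELK with -2.17. CAMKK1 had 2 probes, and this value is that of the named probe alone. MELK was well above background on 5 of 8 muscle arrays and did not pass under normexp (-0.46, adjusted p = 0.104). Against the cord-labelled arrays RRAGD was higher in muscle by 8.34 and PFKFB3 (NM_004566) by 4.53, and SESN2 (NM_031459), a sensor of leucine, and EIF2AK3 (NM_004836) had differences of -2.96 and -1.23 (adjusted p at most 0.000251). PFKFB3 was well above background on 2 of 8 cord-labelled arrays, and its difference under normexp was 1.5 (adjusted p = 0.00247).

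Between the cord-labelled and liver-labelled arrays, PPARGC1A was higher on the former by 8.70 and PDK4 by 5.80, with 5.29 and 2.87 under normexp. Each of them was well above background on only 3 of 6 liver-labelled arrays. The AMP kinase target TBC1D1 (NM_015173), a regulator of glucose transporter traffic, and BRSK1 (NM_032430) had differences of -4.03 and -3.92 log2 units (adjusted p at most 9.80e-07 for these 4).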

How the data were processed

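Total RNA was labelled with Cy3 and hybridized to Agilent rhesus macaque arrays. The intensities deposited by the authors came from Feature Extraction (10.1.1.1, and 10.5.1.1 on slide 6, per the file headers), background-subtracted and not scaled between arrays. A second deposited table of the authors holds log2 values scaled to the 75th percentile and centred, and was used as an alternative. It correlated with the values computed here at r = 0.992 to 0.998 for the LBW minus ABW differences. The depth of an array is its signal over background, and the number of arrays limits the precision.

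For each probe the mean of its spots was expressed in log2 relative to the 75th percentile of that array. Probes stayed in when 1 or more of the 6 groups had 75% of its arrays or more well above background (17117 of 20217, all 9 genes included). Differences within a label were fitted by limma 3.58.1 in R 4.3.3 on the arrays of that label, those between labels and the interaction on all 22 arrays, with Benjamini-Hochberg adjustment over all probes kept. Tables and plots were made with Python 3.11.15, pandas 2.3.3, numpy 2.4.6 and matplotlib 3.10.9. The fits were tested on simulated data.

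The genes and lists were chosen with earlier results of these data known. Genes of the lists are named where they passed the adjusted test with the largest differences (up to 5 per direction by birth weight, up to 3 by label), or else as the 3 with the smallest p. One listed gene that this rule names is not reported here. Their symbols were paired by hand with the human RefSeq identifiers of the array, since the given reference table holds macaque identifiers. The study's additional file pairs 11 of these identifiers and both PASK and STK11, with the same symbols in each case. Erythroid and lymphoid markers were also read, with 7 of 8 erythroid probes highest on the liver-labelled arrays and 7 of 8 lymphoid probes on the cord-labelled arrays. Alternatives covered background correction, scaling, a floor, the filter, blocks for slide and replicate number, the methods' t-test (Welch), the fit of the 6 groups, the deposited log2 values and leaving out each array. Leaving out the 2 arrays of slide 6 was added after seeing the data. Measurements by qRT-PCR were not analysed here.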

Additional observations from a re-analysis of the deposited data

Results flagged for a closer look

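Among 32 groups of 4 arrays examined for the 9 genes, 3 held an array far from the others, and chance alone marks about 1 group in 20. PASK on the cord-labelled arrays was -4.63 in LBW replicate 3 and between -0.25 and 0.35 in the other LBW replicates, a gap of 0.879 of the range of the group. PRKAB2 was 0.83 in LBW replicate 1 of that label and between 2.19 and 2.25 in the others (0.960 of the range). PRKAB2 was 2.56 in ABW replicate 2 of muscle and between 2.93 and 2.94 in the others (0.969 of the range).

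The LBW minus ABW difference of RHEB was -0.84 in muscle, 0.07 on the liver-labelled and -2.71 on the cord-labelled arrays (limma interaction, adjusted p = 0.0127). RHEB was named for the last of these. In muscle and on the cord-labelled arrays birth weight and slide cannot be told apart. For DDIT4 every LBW array lay above every ABW array in muscle and below every ABW array under the label liver. Such separations were found for 8.61% and 3.21% of all probes. The DDIT4 differences were 1.47 and -1.05, and the limma interaction over the 3 labels had an adjusted p of 0.103.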

How the results depend on the processing

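No gene tested for birth weight passed under any alternative. The number of genes that differed between tissue labels went from 7 to 3 between muscle and liver-labelled arrays, from 8 to 5 between muscle and cord-labelled arrays and from 4 to 1 between cord-labelled and liver-labelled arrays with scaling to the spike-in controls, and in the last to 2 within slide 4. With each array left out in turn these numbers were 7, 7 to 8 and 4. Within slide 4 label and birth weight group cannot be told apart. Spike-in scaling turned the muscle minus cord-labelled difference to -0.45 for PRKAG1, -0.33 for MTOR and -0.38 for STK11, and normexp turned that of PRKAA2 between cord-labelled and liver-labelled arrays to 0.15. The direction of the PASK difference by birth weight was the same under all alternatives run. Those that change only the filter, the test, the replicate block or the joint fit of the groups cannot change this difference. With each array left out it was 1.61 to 3.48 in muscle, 0.12 to 2.62 under the label liver and 3.05 to 6.24 under the label umbilical cord. The cause of these shifts was not tested. The labels do not say that a replicate number marks a shared animal. The deviations of arrays with the same number correlated between -0.22 and 0.30 across birth weight groups and, across labels of the same birth weight group, between -0.29 and 0.38 (20 pairs, 2 of them over 0.1), so that the numbers were not taken to pair the arrays. With the replicate block 0 genes passed by birth weight in each label, and 7, 8 and 4 differed between labels. The PASK difference was 2.56, 1.58 and 4.26 as without it, which was fixed in advance, since each replicate number stood once in each group of a label. The PASK difference between muscle and liver-labelled arrays, which passed no test, was -0.29 with the block. With the 6 groups in 1 fit, 3 of 74 listed probes differed by birth weight on the cord-labelled arrays in place of 1. Over all 17117 probes this fit called 483 in place of 107. Dim signals limit PRKAA2 and PRKAG3 outside muscle and PASK on 5 of 11 ABW arrays.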
